A study of Mus musculus with 18 samples.

Results

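Microglia are the resident macrophages of the brain. In the unchallenged brain they express a set of surface receptors and secreted proteins through which they sense growth factors, chemokines and extracellular nucleotides, and many of these genes are known to be turned down when microglia become activated. The 9 genes described here belong to that homeostatic set: Csf1r, Cx3cr1, P2ry12, P2ry13, Gpr34, Selplg, Fcrls, Tmem119 and Olfml3. They were taken by symbol from tables of 13784 genes, and all 9 were present in each of the 3 tables.

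RNA was measured in bulk cortex of 18 mice aged 4 to 6 months, per the labels. The mice fell into 4 groups by the genotype label, which names the same treatment as the treatment label, although every library title also carries the word for saline: saline-treated controls (4 mice), controls that received lipopolysaccharide (LPS, a bacterial outer membrane component that triggers innate immunity; 5 mice), mice with a conditional knockout (cKO) of the chromatin remodeller gene Chd8 in astrocytes and saline (4 mice), and the same knockout with LPS (5 mice). LPS was injected into the peritoneum at 5 mg/kg and tissue was collected 72 hours later. The sources used here give neither the Cre driver of the knockout nor the alleles of the control mice, and do not say whether mice of a group shared a litter, so p-values measure the spread between these mice only. In bulk tissue, fewer microglia and less RNA of a gene per microglial cell cannot be told apart. Saline mice carry plain numbers and LPS mice codes with letters; no batch is named, and a handling difference behind these codes cannot be told apart from treatment.

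All values derive from 3 comparisons that the authors' deposited tables give: LPS against saline in controls, LPS against saline in cKO mice, and cKO against control mice after LPS. Each fold change is on the log2 scale, its standard error (SE) was derived from the deposited F statistic, and a gene is said to have risen or fallen where the deposited false discovery rate (FDR) is below 0.05. Values of single libraries were not used here, so the depth of each library and the value in each mouse are unknown. Levels of a group in CPM (read counts scaled to library size) were back-calculated from the deposited fold change and mean level; they are estimates without an error, and because the tables were fitted separately, levels of control and cKO mice set side by side are on scales that may differ slightly. Estimated levels of the same LPS group from different tables differed by a median of 0.05 on the log2 scale over all genes. Single members differed by more or less. In control LPS mice, P2ry13 had 7.62 CPM from the LPS comparison and 6.91 from the genotype comparison, and Cx3cr1 had 50.8 and 51.5.

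Several measurements of the whole series touch the results below. Chd8 itself, which cells other than astrocytes also express, did not pass between the genotypes after LPS in the authors' deposited table (log2 fold change 0.02 ± 0.05 SE, FDR = 0.901), so bulk cortex gives no check of the knockout label. Markers of cortical neurons were abundant, with an estimated 770 CPM of the vesicular glutamate transporter gene Slc17a7 in control saline mice. The choroid plexus gene Ttr stood at an estimated 106 CPM in control saline and 6.46 CPM in control LPS mice. In cKO mice the estimates were 108 CPM after saline and 15.2 CPM after LPS. Ttr did not pass in controls (-4.03 ± 1.96, FDR = 0.206) or in cKO mice (-2.83 ± 1.86, FDR = 0.303) in the authors' deposited tables. Estimated levels of sex-linked transcripts also differed between the groups. The Y-linked gene Ddx3y had an estimated 0.00687 CPM in control saline mice against 12.8 in control LPS, 58.6 in cKO saline and 52.5 in cKO LPS mice. For Xist, the corresponding estimates were 177, 161, 20.3 and 60.0 CPM. Their part in the results below was not tested; Gpr34 is itself X-linked.

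In control cortex after LPS, some of the 9 genes rose, 1 fell and 5 did not pass. In the authors' deposited table, 4 of the 9 passed the threshold, against 9.76% of all genes: 3 rose, against 6.46%, and 1 fell, against 3.31%. The receptor gene Csf1r, the chemokine receptor gene Cx3cr1 and the secreted glycoprotein gene Olfml3 rose, while the nucleotide receptor gene P2ry13 fell. In cKO cortex 5 of the 9 passed in the authors' deposited table, against 19.5% of all genes: 2 rose, against 10.9%, and 3 fell, against 8.52%. Csf1r and Cx3cr1 rose and P2ry12, P2ry13 and Fcrls fell. With the more conservative Benjamini-Yekutieli adjustment none of the 9 passed in cKO mice, where 0.595% of all genes did, and 2 of the 9, Csf1r and Olfml3, passed in controls, where 1.24% of all genes did. With a fold change of at least 1.5 required beside the FDR, Csf1r alone of the 9 passed in cKO mice, against 4.71% of all genes. The median log2 fold change of the 9 genes was 0.22 in controls and -0.09 in cKO mice, against -0.0027 and -0.0013 for all genes. At an unadjusted p below 0.05, 7 of the 9 passed in controls, against 28.9% of all genes, and 2 of these were lower, against 12.7%. In cKO mice 5 passed at that level, against 35.8%, of which 3 were lower, against 16.7%. Below 0 lay 3 of the 9 in controls, against 50.5% of all genes, and 6 of the 9 in cKO mice, against 50.2%.

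**Figure D1:**
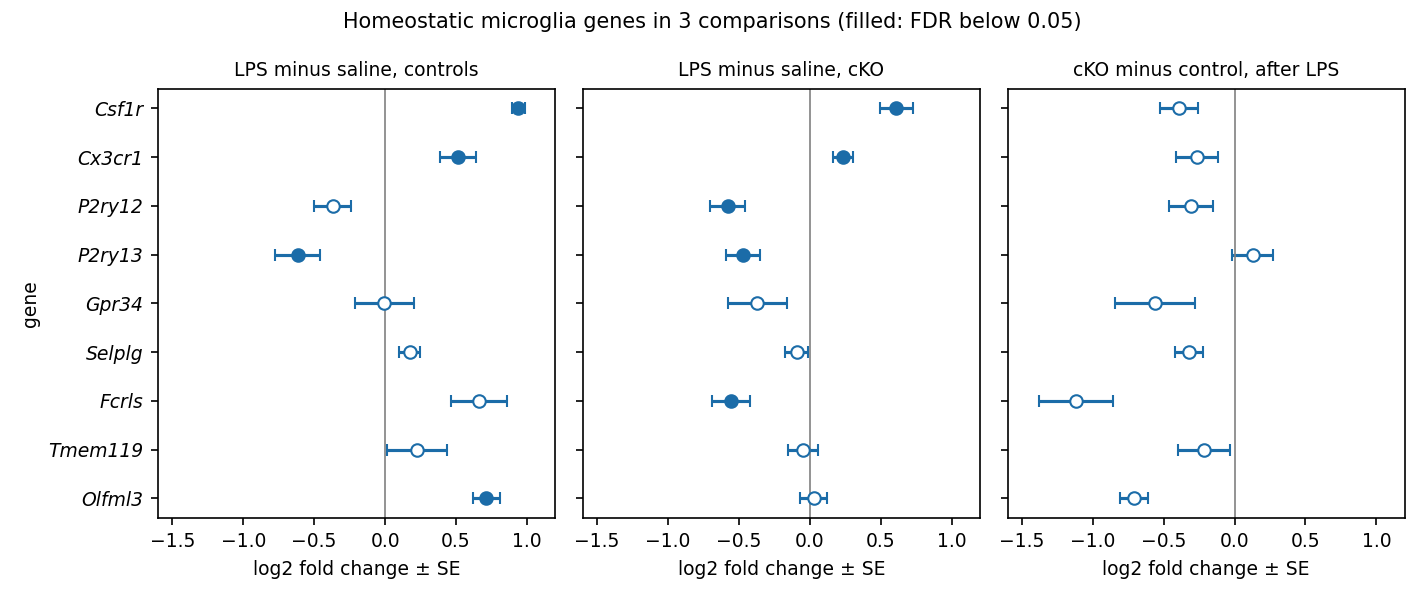
Log2 fold change (x axis, ± SE) of each of the 9 genes (rows) in the 3 comparisons (panels); filled points passed the FDR threshold of 0.05 that the authors' deposited tables were read with. Csf1r and Cx3cr1 lie above 0 and P2ry12 and P2ry13 below 0 after LPS in both genotypes, Olfml3 and Fcrls lie at 0.71 and 0.66 in controls against 0.03 and -0.55 in cKO mice, and in the right panel 8 of 9 genes lie below 0 with no filled point.

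Csf1r encodes the tyrosine kinase receptor for CSF1 and IL-34, on which microglia depend for survival. Its estimated level was 71.2 CPM in control saline, 137 in control LPS, 70.2 in cKO saline and 107 in cKO LPS mice. Both LPS groups thus stood above both saline groups, and control LPS was the highest. In the authors' deposited table for controls Csf1r rose by 0.94 ± 0.05 (95% interval 0.83 to 1.05, FDR = 2.04e-05), placing it at the 98.1th percentile of all genes. In cKO mice it rose by 0.61 ± 0.12 (95% interval 0.35 to 0.87, FDR = 0.0112) in the authors' deposited table.

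Cx3cr1 encodes the receptor for fractalkine, a chemokine made by neurons. Its estimated level was 35.7 CPM in control saline, 50.8 in control LPS, 36.9 in cKO saline and 43.4 in cKO LPS mice, so again the LPS groups were the higher ones. The rise was 0.51 ± 0.13 in controls (FDR = 0.0374) and 0.24 ± 0.07 in cKO mice (FDR = 0.0472) in the authors' deposited tables. Both calls lie close to the threshold, and that in cKO mice ended when a trend of the fold changes with gene length and GC content was removed (0.21, FDR = 0.0794).

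P2ry12 and P2ry13 encode G-protein-coupled receptors for ADP; P2ry12 is the receptor by which microglial processes sense nucleotides released at sites of injury. For P2ry12 the estimated levels were 38.7 CPM in control saline, 29.9 in control LPS, 36.7 in cKO saline and 24.6 in cKO LPS mice. Its level was lower in each LPS group than in either saline group. In cKO mice P2ry12 fell by 0.58 ± 0.12 on the log2 scale (95% interval -0.85 to -0.31, FDR = 0.0145) in the authors' deposited table. In controls it did not pass, at -0.37 ± 0.13 (FDR = 0.0997) in the authors' deposited table.

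P2ry13 showed estimated levels of 11.7 CPM in control saline, 7.62 in control LPS, 11.3 in cKO saline and 8.13 in cKO LPS mice. The saline groups were the higher ones in both genotypes. P2ry13 fell by 0.62 ± 0.16 in controls (FDR = 0.0411) and by 0.47 ± 0.12 in cKO mice (FDR = 0.0247) in the authors' deposited tables. Only 0.486% of all genes had a lower fold change than P2ry13 in controls. With the length and GC trend removed, the call in controls ended (-0.58, FDR = 0.0551).

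P2ry12 (chromosome 3, 59216272 to 59262871) and P2ry13 (59207892 to 59210882) are neighbours on the minus strand, and both lie within the gene Med12l on the opposite strand in the GENCODE annotation of GRCm38. The library kit marks strand, but the sources used here do not say whether the counting used it. Med12l did not pass in either genotype, at 0.08 ± 0.06 in controls (FDR = 0.446) and -0.07 ± 0.06 in cKO mice (FDR = 0.379) in the authors' deposited tables. Gpr34 (chromosome X, 13632089 to 13640858, plus strand) lies across Cask, which is on the opposite strand. Cask fell by 0.26 ± 0.06 after LPS in cKO mice (FDR = 0.0145) in the authors' deposited table. Cask did not pass in controls (-0.06 ± 0.06, FDR = 0.555) or between the genotypes after LPS (-0.17 ± 0.05, FDR = 0.311) in the authors' deposited tables. Csf1r overlaps Hmgxb3, and the annotated span of Cx3cr1 overlaps 5 coding genes, of which Gorasp1, Csrnp1 and Xirp1 lie on its own strand and Wdr48 and Ttc21a on the other. Hmgxb3, Wdr48, Gorasp1 and Csrnp1 passed in no comparison of the authors' deposited tables, and Ttc21a and Xirp1 were not analysed here.

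Stretches upstream of the start sites are shown for P2ry12 and P2ry13, which fell after LPS in cKO mice, and for Olfml3, which rose in controls. They are the 150 bases before the start listed by RefSeq for GRCm38.p6, read 5′ to 3′ on the minus strand of chromosome 3; the study's build was GRCm39. RefSeq starts were matched for 5 of the 9 genes. The windows of Fcrls and Cx3cr1 overlap annotated exons of the genes themselves and are not shown. PU.1, encoded by Spi1, is the lineage-determining factor of macrophages and binds purine-rich sequences around GAGGAAGT. Both strands were searched for GAGGAAGT and its overlapping parts GAGGAA and GGAAGT, and capitals mark matches.
P2ry12, chr3:59262986-59263135: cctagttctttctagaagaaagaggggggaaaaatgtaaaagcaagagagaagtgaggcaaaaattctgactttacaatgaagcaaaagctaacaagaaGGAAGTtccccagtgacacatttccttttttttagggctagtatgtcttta
P2ry13, chr3:59210883-59211032: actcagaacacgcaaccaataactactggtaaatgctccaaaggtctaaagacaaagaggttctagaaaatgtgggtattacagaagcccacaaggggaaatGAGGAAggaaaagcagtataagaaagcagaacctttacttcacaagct
Olfml3, chr3:103738002-103738151: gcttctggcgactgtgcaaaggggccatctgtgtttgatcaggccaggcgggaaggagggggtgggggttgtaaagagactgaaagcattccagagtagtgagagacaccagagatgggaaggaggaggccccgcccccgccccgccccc

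None of the 3 stretches holds GAGGAAGT. P2ry13 holds GAGGAA starting at position -48 and P2ry12 holds GGAAGT starting at position -51, where -1 is the base just before the listed start. Among 32851 RefSeq windows of the same 150 bases, 14.5% hold GAGGAA, 13.6% hold GGAAGT and 1.63% hold GAGGAAGT on either strand. A match is a description of the letters and no evidence of binding.

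Gpr34, a receptor for lysophosphatidylserine, had estimated levels of 12.8 CPM in both control groups, 11.6 in cKO saline and 9.01 in cKO LPS mice. It did not pass in controls (-0.01 ± 0.21, FDR = 0.988) or in cKO mice (-0.37 ± 0.21, FDR = 0.230) in the authors' deposited tables. The 95% interval in controls ran from -0.47 to 0.46, so changes of that size in either direction are not excluded by these data. Selplg encodes PSGL-1, a selectin ligand of leukocytes and microglia. With estimated levels of 18.6, 21.0, 18.3 and 17.2 CPM in control saline, control LPS, cKO saline and cKO LPS mice, it varied little, and its fold changes of 0.17 ± 0.08 in controls (FDR = 0.162) and -0.09 ± 0.08 in cKO mice (FDR = 0.441) did not pass in the authors' deposited tables.

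Fcrls encodes a secreted or surface Fc receptor-like scavenger protein of mouse microglia. Its estimated level was 17.4 CPM in control saline, 27.5 in control LPS, 21.0 in cKO saline and 14.3 in cKO LPS mice, so control LPS was the highest and cKO LPS the lowest of the 4 groups. Fcrls had a fold change of 0.66 ± 0.20 in controls, which did not pass (FDR = 0.0614), in the authors' deposited table. In cKO mice it fell by 0.55 ± 0.13 (FDR = 0.0218) in the authors' deposited table.

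Tmem119, a transmembrane protein gene used to distinguish microglia from other macrophages, had estimated levels of 18.0, 21.0, 19.3 and 18.6 CPM in control saline, control LPS, cKO saline and cKO LPS mice. Its fold changes of 0.22 ± 0.21 in controls (FDR = 0.517) and -0.05 ± 0.11 in cKO mice (FDR = 0.767) did not pass in the authors' deposited tables. Olfml3, an olfactomedin-domain protein secreted by microglia, had 16.6 CPM in control saline, 27.2 in control LPS, 17.5 in cKO saline and 17.8 in cKO LPS mice. Control LPS thus stood apart from the other 3 groups. Olfml3 rose by 0.71 ± 0.09 in controls (FDR = 0.00230) and had 0.03 ± 0.10 in cKO mice (FDR = 0.866) in the authors' deposited tables.

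**Figure D2:**
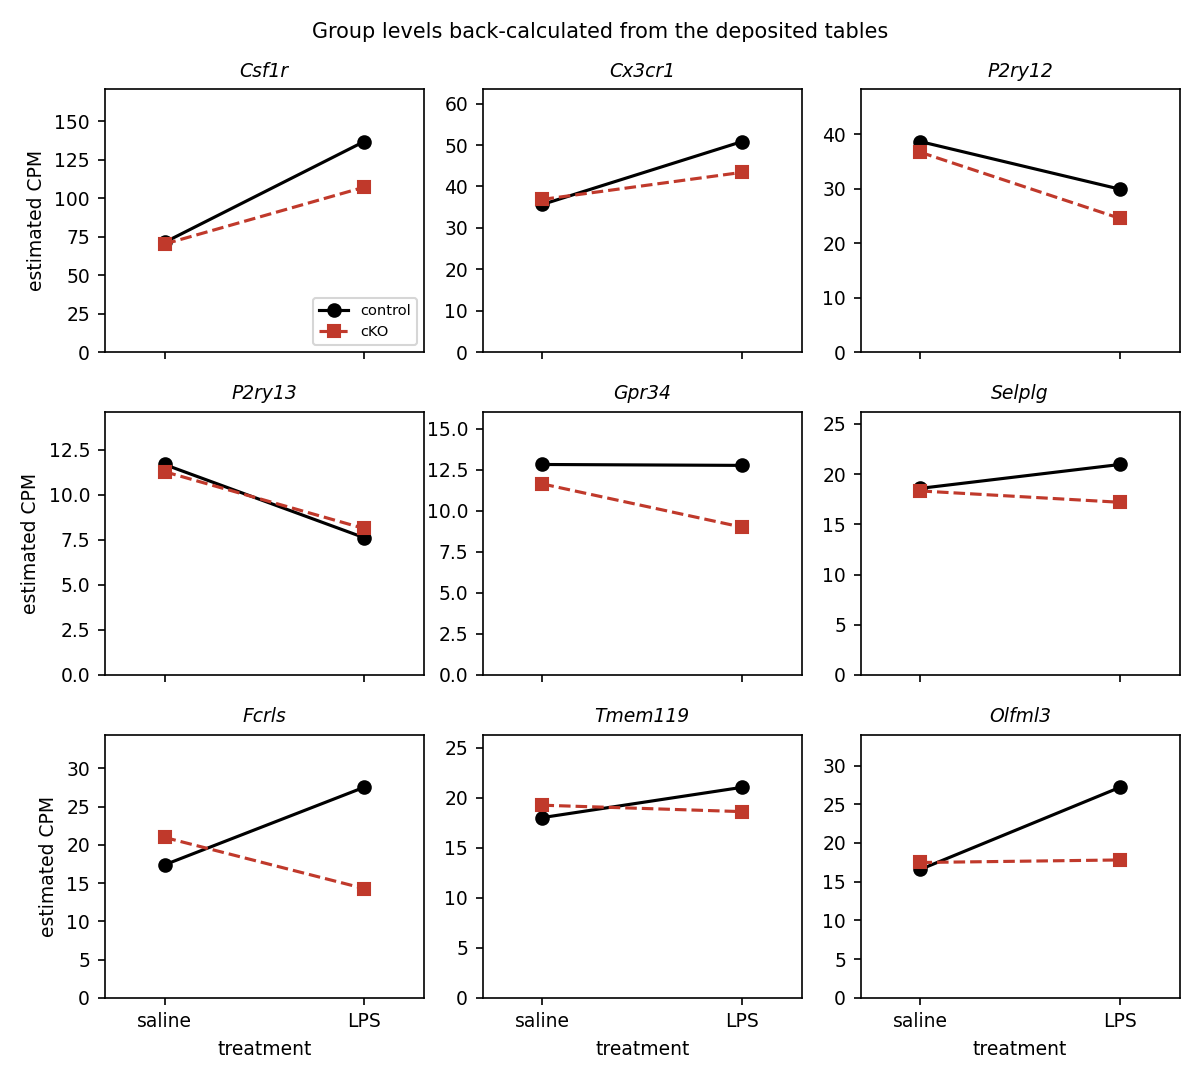
Estimated CPM (y axis, from 0) of the 9 genes in saline and LPS groups (x axis) of control (black circles, solid lines) and cKO mice (red squares, broken lines), back-calculated from the authors' deposited tables without an error. After saline the genotypes lie furthest apart on the log2 scale for Fcrls, at 17.4 CPM in control and 21.0 in cKO mice, and after LPS the control value is the higher for each gene except P2ry13, where the estimates are 7.62 CPM in control and 8.13 in cKO mice.

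After LPS, 8 of the 9 genes had lower values in cKO than in control cortex, and none passed the threshold. The background in that comparison of the authors' deposited tables was 0.00725% of all genes past the threshold and 49.5% below 0. At an unadjusted p below 0.05, 4 of the 9 genes were lower and none higher, against 6.33% of all genes lower and 12.3% in either direction: Olfml3, Fcrls, Selplg and Csf1r. The median of the 9 genes was -0.32, and that of all genes was 0.0016.

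Fcrls had the lowest fold change of the set, -1.12 ± 0.26 (95% interval -1.71 to -0.52, unadjusted p = 0.00231, FDR = 0.249 from edgeR) in the authors' deposited table, with 28.4 CPM in control LPS and 13.1 in cKO LPS mice estimated from that table. Olfml3 followed with -0.71 ± 0.10 (95% interval -0.94 to -0.48, unadjusted p = 7.32e-05, FDR = 0.147 from edgeR) in the authors' deposited table, with estimates of 28.2 and 17.3 CPM. Only 0.160% of all genes lay below Fcrls and 0.965% below Olfml3.

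Gpr34 came next after Olfml3, with a wider error than that gene, at -0.56 ± 0.28 (FDR = 0.457) in the authors' deposited table. The receptor genes Csf1r (-0.39 ± 0.13, FDR = 0.329), P2ry12 (-0.31 ± 0.15, FDR = 0.451) and Cx3cr1 (-0.26 ± 0.15, FDR = 0.497) also lay below 0 in the authors' deposited table. So did Selplg (-0.32 ± 0.10, FDR = 0.298) and Tmem119 (-0.22 ± 0.18, FDR = 0.655) in the authors' deposited table. P2ry13 was the exception at 0.13 ± 0.14 (FDR = 0.747) in the authors' deposited table. The intervals of Gpr34, Cx3cr1, P2ry12, Tmem119 and P2ry13 include 0.

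The LPS response in cKO mice minus that in controls was then tested per gene. The underlying comparisons share no library. The SE and interval of this difference come from the normal quantiles of the deposited p-values and not from F. None of the 9 genes passed when adjusted over all 13784 genes, against 0.00725% of all genes that did. At an unadjusted p below 0.05, 3 of the 9 had a difference below 0, against 3.5% of all genes, and none had one above 0; 6.52% of all genes passed in either direction. The difference lay below 0 for 8 of the 9, against 50.1% of all genes. Fcrls had a difference of -1.22 ± 0.31 (95% interval -1.82 to -0.62), with an unadjusted p = 7.05e-05 and an adjusted p = 0.241 by Benjamini-Hochberg over all genes of the edgeR tables. For Olfml3 the difference was -0.69 ± 0.20 (95% interval -1.07 to -0.30), with an unadjusted p = 0.000454 and an adjusted p = 0.298 in the same test on the edgeR tables. The difference for Selplg was -0.27 ± 0.12 (unadjusted p = 0.0289, adjusted p = 0.708).

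With the SE from the p-values, the other 6 genes had intervals that include 0. Their differences ranged from -0.36 ± 0.31 for Gpr34 to 0.14 ± 0.26 for P2ry13. Csf1r, which rose in both genotypes, had a difference of -0.33 ± 0.23 (95% interval -0.79 to 0.13, adjusted p = 0.849). From F, the SEs of its responses were smaller, at 0.05 in controls and 0.12 in cKO mice. In a t test with the SE of the difference from F, its adjusted p was 0.505 by Benjamini-Hochberg. No interval was derived from that SE, so whether it would include 0 is not given here. Olfml3 passed in controls and not in cKO mice, and Fcrls and P2ry12 passed in cKO mice and not in controls, but for none of these did the difference itself pass over all genes. The saline groups were not compared by the authors' deposited tables; point estimates of cKO minus control after saline, with no test, ranged from -0.20 for Gpr34 to 0.10 for Fcrls with a median of -0.02. Taken from the back-calculated levels, the estimate of Olfml3 turned from -0.02 to 0.075 and that of Fcrls moved from 0.10 to 0.27.

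**Figure D3:**
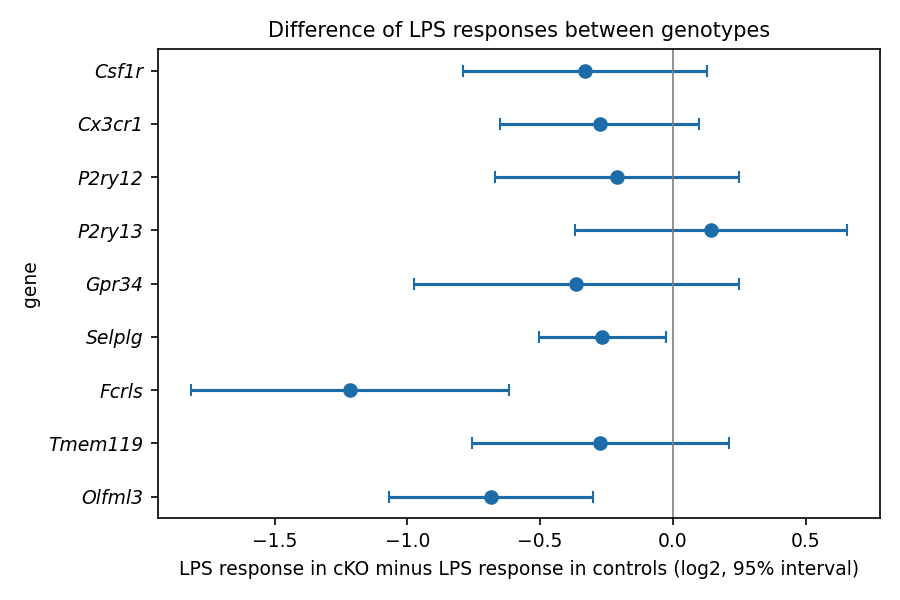
LPS response in cKO minus LPS response in control mice (x axis, log2, with 95% interval) for each of the 9 genes (rows). Intervals use the SE from the normal quantiles of the deposited p-values. Those of Fcrls, Olfml3 and Selplg lie below 0 and those of the other 6 genes include 0. None of the 9 genes passed after adjustment over all genes.

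Genes that supply or process the ligands of these receptors were given by a list of 10, of which 6 were measured. After LPS, 3 of 6 rose in controls, against 6.46% of all genes, and 2 of 6 in cKO mice, against 10.9%. None fell, against 3.31% and 8.52%, in the authors' deposited tables. Csf1, the ligand of Csf1r, rose by 0.62 ± 0.09 in controls (FDR = 0.00377) and by 0.48 ± 0.08 in cKO mice (FDR = 0.00755) in the authors' deposited tables. Il34, the other ligand of that receptor, did not pass (0.01 ± 0.09 in controls, FDR = 0.959; -0.19 ± 0.07 in cKO mice, FDR = 0.0949) in the authors' deposited tables. Tgfb1, which encodes a cytokine that maintains the homeostatic microglial state, rose by 1.25 ± 0.27 in controls (FDR = 0.0239) and 1.35 ± 0.29 in cKO mice (FDR = 0.0152) in the authors' deposited tables. Its estimated levels were low, at 1.15 CPM in control saline, 2.73 in control LPS, 0.889 in cKO saline and 2.27 in cKO LPS mice. Entpd1, an ectonucleotidase that breaks down ATP and ADP, rose in controls by 0.45 ± 0.08 (FDR = 0.00985) and had 0.28 ± 0.15 in cKO mice (FDR = 0.211) in the authors' deposited tables. Cx3cl1, the ligand of Cx3cr1, had -0.27 ± 0.08 between the genotypes after LPS (FDR = 0.291) in the authors' deposited table, and none of the 6 passed there.

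A wider list of 22 homeostatic microglia genes, 18 of them measured, held genes that rose and genes that fell. By the authors' deposited tables, 6 of the 18 rose in controls, against 6.46% of all genes, and none fell, against 3.31%. In cKO mice 5 of the 18 rose, against 10.9% of all genes, and 2 fell, against 8.52%. The risers in both included Trem2, a lipid-sensing receptor gene, at 0.90 ± 0.11 in controls (FDR = 0.00122) and 0.45 ± 0.13 in cKO mice (FDR = 0.0423), and Cd33, at 1.24 ± 0.13 (FDR = 0.000599) and 0.94 ± 0.22 (FDR = 0.0209), in the authors' deposited tables. Sparc rose by 1.00 ± 0.07 in controls (FDR = 8.28e-05) and 1.44 ± 0.18 in cKO mice (FDR = 0.00387) in the authors' deposited tables; it is also expressed by astrocytes and endothelial cells. The 2 that fell in cKO mice were Tgfbr1, a TGF-beta receptor gene (-0.34 ± 0.08, FDR = 0.0238), and Cst3, which encodes cystatin C (-0.32 ± 0.09, FDR = 0.0381), in the authors' deposited table; Cst3 was named after its values were seen. Between the genotypes after LPS none of the 18 passed in the authors' deposited table. There 14 of the 18 lay below 0, against 49.5% of all genes, and the median was -0.27.

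Of 12 microglial transcription factor genes, 11 were measured. In the authors' deposited tables, 6 rose after LPS in controls, against 6.46% of all genes, and 5 in cKO mice, against 10.9%. None fell, against 3.31% and 8.52%. Spi1, which encodes PU.1, rose by 1.27 ± 0.17 in controls (FDR = 0.00266) and 1.04 ± 0.26 in cKO mice (FDR = 0.0262) in the authors' deposited tables. Sall1, a factor of microglial identity, rose by 0.68 ± 0.17 in controls (FDR = 0.0360) and 1.00 ± 0.13 in cKO mice (FDR = 0.00465) in the authors' deposited tables. Between the genotypes after LPS none passed in the authors' deposited table. There 7 of 11 lay below 0, against 49.5% of all genes, with a median of -0.15.

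Of 14 pan-myeloid genes, shared by microglia and other myeloid cells, 13 rose in controls, against 6.46% of all genes, in the authors' deposited tables. In cKO mice 9 rose, against 10.9%. None fell, against 3.31% and 8.52% of all genes. The medians were 1.22 in controls and 0.97 in cKO mice. Laptm5, a lysosomal membrane protein gene of blood lineages, rose by 1.37 ± 0.12 in controls (FDR = 0.000273) and 0.92 ± 0.19 in cKO mice (FDR = 0.0132) in the authors' deposited tables. Itgam, which encodes CD11b, rose by 1.57 ± 0.17 (FDR = 0.000599) and 1.06 ± 0.28 (FDR = 0.0309) in the authors' deposited tables. Set beside these, Csf1r was the highest of the 9 genes at 0.94 and 0.61. P2ry12, P2ry13 and Gpr34 lay below 0 in both genotypes, Gpr34 at only -0.01 in controls. Fcrls, Selplg and Tmem119 lay below 0 in cKO mice and above 0 in controls. Between the genotypes after LPS, the pan-myeloid genes had a median of -0.28 in the authors' deposited table. Of the 14, 12 lay below 0, against 49.5% of all genes, and none passed. The 9 homeostatic genes had a median of -0.32 there; what part a shared myeloid shift has in it was not tested. Among the pan-myeloid genes Ly86 was the lowest, at -0.81 ± 0.27 (FDR = 0.329) in the authors' deposited table.

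The disease-associated microglia list had 11 of 15 genes measured. After LPS, 5 of the 11 rose in each genotype, against 6.46% of all genes in controls and 10.9% in cKO mice. None fell, against 3.31% and 8.52%, in the authors' deposited tables. Ctsd, which encodes the lysosomal protease cathepsin D, rose by 0.53 ± 0.05 in controls (FDR = 0.000324) and 0.33 ± 0.08 in cKO mice (FDR = 0.0221) in the authors' deposited tables. Between the genotypes after LPS the median of the list was -0.02, with 6 of 11 below 0, against 49.5% of all genes. Apoe (0.47 ± 0.08, FDR = 0.147) and Lpl (0.72 ± 0.13, FDR = 0.147) lay above 0 without passing in the authors' deposited table. Both are also made by other brain cells.

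**Figure D4:**
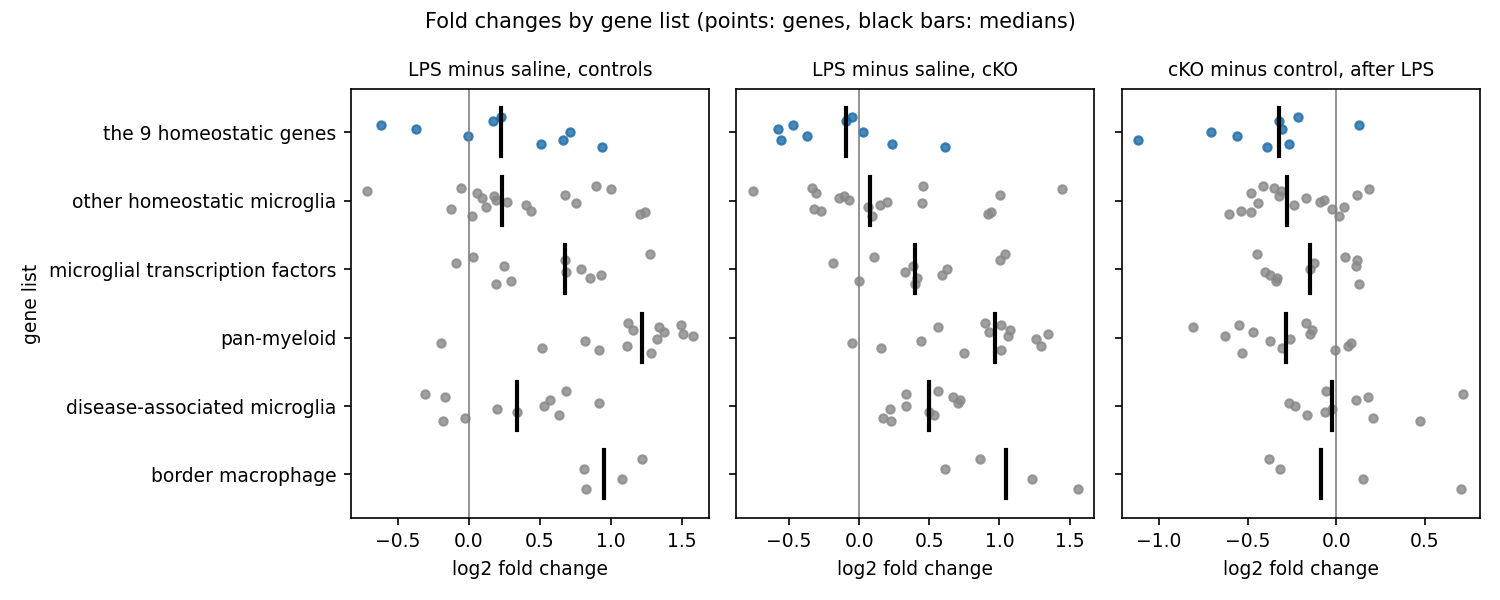
Log2 fold change (x axis) of each measured gene (points) in 6 gene lists (rows; the 9 homeostatic genes in blue), with the list median as a black bar, in the 3 comparisons (panels). After LPS the pan-myeloid medians are 1.22 in controls and 0.97 in cKO mice against 0.22 and -0.09 for the 9 genes, while between the genotypes the medians are -0.28 and -0.32.

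Markers of other cells that share some of these genes were checked. Of 10 border macrophage genes 4 were measured. In the authors' deposited tables all 4 rose in controls, against 6.46% of all genes, and 3 in cKO mice, against 10.9%. Stab1 was among them, at 1.21 ± 0.08 in controls (FDR = 8.28e-05) and 0.86 ± 0.25 in cKO mice (FDR = 0.0402). Border macrophages also express Csf1r and Cx3cr1, and their part in the rises of these genes was not tested. The monocyte and neutrophil list had 1 of 12 genes measured, Vcan, which is also a gene of oligodendrocyte precursors and did not pass in any of the comparisons in the authors' deposited tables (FDR = 0.490 in controls, 0.558 in cKO mice and 0.867 between genotypes). The lymphocyte list had 1 of 10, Cd4, which did not pass either (FDR = 0.931, 0.470 and 0.580 in the authors' deposited tables), and of 6 platelet genes none was analysed here. Of 12 cortical cell type markers, 2 rose in controls, against 6.46% of all genes, and 1 fell, against 3.31%. In the knockout 3 rose, against 10.9%, and 1 fell, against 8.52%. None passed between the genotypes in the authors' deposited tables. The endothelial gene Pecam1 rose by 1.04 ± 0.08 in controls (FDR = 0.000148) and 0.75 ± 0.18 in cKO mice (FDR = 0.0233) in the authors' deposited tables. Among markers of tissue next to cortex, the 5 measured of 6 did not pass in controls, and 2 rose in cKO mice, against 10.9% of all genes. All 5 lay above 0 between the genotypes after LPS, with a median of 0.63, where 49.5% of all genes lay below 0. The striatal gene Ppp1r1b had 0.63 ± 0.20 (FDR = 0.298) in the authors' deposited table. Whether dissection had a part in the lower homeostatic values of cKO mice was not tested.

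The genes whose 3 fold changes lay nearest to those of Olfml3, Fcrls and Selplg, the members with the lowest unadjusted p between the genotypes, were sought by Euclidean distance over the 3 comparisons, which share LPS libraries. For Olfml3 they were Hpgd, a prostaglandin-degrading enzyme gene (distance 0.073), Slc47a1 (0.126) and Adamtsl3 (0.135). For Selplg the nearest was Rgs10 (0.017), a regulator of G-protein signalling that is also on the wider homeostatic microglia list, before Rpia (0.017) and Lyar (0.020). Fcrls had no gene as close: Gvin1 (0.160), Ccnb1 (0.276) and Steap3 (0.30) were its nearest.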

How the data were processed

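The members, gene lists and alternatives were chosen with earlier results of these data known. The submitters' processing notes name edgeR 3.30.3, RSEM, STAR, cutadapt 3.5 and the build GRCm39, with roles and gene filter not given in the sources used here. The deposited columns, per the file headers, are the log2 fold change, the mean level as log2 CPM, the F statistic (a score), the p-value and the FDR of 13784 genes, of which 757 carry no symbol. The deposited FDR equals a Benjamini-Hochberg adjustment of the deposited p-value column.

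The headers do not state the sign. Read as LPS minus saline and cKO minus control, the 2 estimates of an LPS group's levels had differences with an SD over genes of 0.0503 (cKO) and 0.0537 (control); with any sign turned, the larger of these SDs was 0.226 or more. SE is the absolute fold change over the root of F, and 95% intervals use degrees of freedom solved from F and p (9.85, 9.76 and 8.66). Levels take the mean log2 CPM as the log of the mean CPM over libraries of equal weight. The difference of LPS responses was divided by an SE from the normal quantiles of the deposited p-values (two-sided) and adjusted over all genes; this test was tested on simulated data. Named genes are the 9 members, Chd8, up to 3 genes per list and comparison with the lowest p, the nearest genes, and genes needed beside a result. Python 3.11.15, scipy 1.17.1 and statsmodels 0.14.6 were used. Alternatives were other thresholds and adjustments, a minimum level or fold change, median centring, removal of a length and GC trend, and other ways to derive levels and the SE of the difference.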

Additional observations from a re-analysis of the deposited data

How the results depend on the processing

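Counts of members past the threshold moved by over 1.5 times under 2 alternatives. With Benjamini-Yekutieli in place of Benjamini-Hochberg adjustment, 2 members passed for LPS in controls (171 of 13784 genes did) and 0 for LPS in cKO mice (82 genes did). With Benjamini-Hochberg adjustment and a minimum fold change of 1.5, 1 member passed for LPS in cKO mice (649 genes did). At a threshold of 0.10, P2ry12 and Fcrls also passed for LPS in controls. There 6 members passed, 4 higher and 2 lower (1556 and 1001 of 13784 genes did). No total of members called moved by over 1.5 times under a threshold of 0.10, a minimum mean log2 CPM of 1 or median centring. The same held with the length and GC trend removed. Under these, 0 members passed between genotypes and for the difference of LPS responses. With the SE of that difference from F and a t test, 0 members passed as well. The Benjamini-Hochberg adjusted p was lower there, at 0.112 against 0.241 for Fcrls and 0.112 against 0.298 for Olfml3. With the length and GC trend removed, the members that fell in controls went from 1 to 0, those that rose in cKO mice from 2 to 1, and the members' median in cKO mice from -0.09 to -0.17. Reversed values were those of Gpr34 after LPS in controls (0.062) and Olfml3 after LPS in cKO mice (-0.029) with the length and GC trend removed, and of Olfml3 after saline (0.075) from back-calculated levels; the cause was not tested. No paired analysis was possible because the deposited tables hold no values per library; for the same reason no replicate was left out, and what depth limits is unknown.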
